A study of Caenorhabditis elegans with 22 samples.

Results

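FMRFamide-like peptides are short amidated neuropeptides, and in Caenorhabditis elegans they are encoded by the flp genes. The 31 genes whose symbol begins with flp- and a number were taken from the 42048 genes of a whole-worm RNA-seq count table. That rule used no measured value, though it was set with earlier results of these data known. Of the 31 genes, 30 were among the 15310 genes with enough reads to be tested. The exception, flp-23, had 42 reads over all 22 libraries, between 0 and 6 in each, and was left out of the tests.

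The study exposed larvae of N2, the laboratory wild type, to 5% ethanol by volume in S-basal, a salt buffer, for 1, 4 or 20 h, with 3 libraries at each time. Control larvae were held in the same buffer with 0% ethanol for the same times, again with 3 libraries at each time. A time zero group of 4 libraries came from larvae grown without ethanol. All larvae had been grown on Escherichia coli OP50 and washed off it, and no food is named for the buffer, so each ethanol group is set against a control of the same time, while both differ from time zero in their time in buffer. The libraries are labelled as biological replicates, but no separate culture is named for each, so the tests are set against library-to-library spread, part of which may be technical. The larvae are described as L3 in the protocol and as L4 in the series title.

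An FMRFamide-like peptide is made as a longer precursor, which is cut by a proprotein convertase, trimmed by a carboxypeptidase and amidated at its C terminus. It travels in dense-core vesicles, is released with the help of the CAPS protein UNC-31, and acts mostly on G protein-coupled receptors of the NPR, FRPR and DMSR families and on EGL-6. The peptides are known in the worm for roles in locomotion, egg laying, feeding, sleep and fat storage.

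Library totals ran from 10908205 to 15302047 reads. Levels are given as CPM, read counts scaled to library totals that were adjusted by TMM factors, and an adjusted p comes from edgeR's quasi-likelihood test over all tested genes, with a call at a Benjamini-Hochberg adjusted p under 0.05. RNA of eggshell and oocyte genes was present at time zero, at a summed 2477 to 7803 CPM over 5 genes, and such genes are transcribed in the maturing germ line. Along the main axis of differences within groups, which held 41.4% of the variance there, 6 libraries scored above 10, among them ethanol replicate 3 and control replicate 1 at 20 h. In 6 of the 7 groups the library with the highest score had the lowest flp sum of its group, and in 6 of the 7 the library with the most eggshell RNA did. In the 6 libraries scoring above 10, log2 levels relative to the group mean also rose with log2 exon length. This length slope ran from 0.0810 in ethanol replicate 2 at 4 h to 0.211 in control replicate 1 at 20 h. The part of exon length or eggshell RNA in the flp sums was not tested.

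At time zero the flp genes spanned a wide range of levels per kilobase of exon. Their exons add up to between 422 and 1013 nt per gene, with a median of 643 nt, against a median of 1337 nt over the tested genes. flp-28 had the highest level, 37.1 ± 4.41 CPM per kilobase, followed by flp-14 at 36.2 ± 6.21 and flp-24 at 34.5 ± 3.92 (SD, n = 4). At the low end were flp-25 at 3.83 ± 0.253 CPM per kilobase, flp-34 at 2.64 ± 0.482 and flp-23 at 0.271 ± 0.184 (SD, n = 4). In that order 27 of the 30 neighbouring pairs of genes overlapped in their ranges over the 4 libraries, so most neighbours did not differ beyond their spread. The 3 pairs that did not overlap were flp-6 and flp-11, flp-25 and flp-34, and flp-34 and flp-23.

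Summed over the 31 genes, flp RNA was lower in ethanol than in the controls at 4 h and 20 h. The sum at time zero was 234.8, 301.5, 254 and 285.0 CPM in the 4 libraries. At 1 h it was 293.6, 217.1 and 278.3 CPM in ethanol, against 319.6, 240.4 and 272.5 CPM in control, and the groups overlapped. At 4 h it was 352.0, 282.3 and 323.2 CPM in ethanol, against 388.5, 374.7 and 393.3 CPM in control, and at 20 h 358.8, 414.4 and 302.3 CPM in ethanol, against 535.9, 649.6 and 669.1 CPM in control. At both later times every ethanol library lay below every control library. As a share of the time zero mean, the 20 h sum was 133% ± 20.9 in ethanol and 230% ± 26.8 in control (SD, n = 3 each). In whole worms, fewer cells that make a peptide, less RNA per cell and a changed share of RNA from other tissues cannot be told apart.

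**Figure D1:**
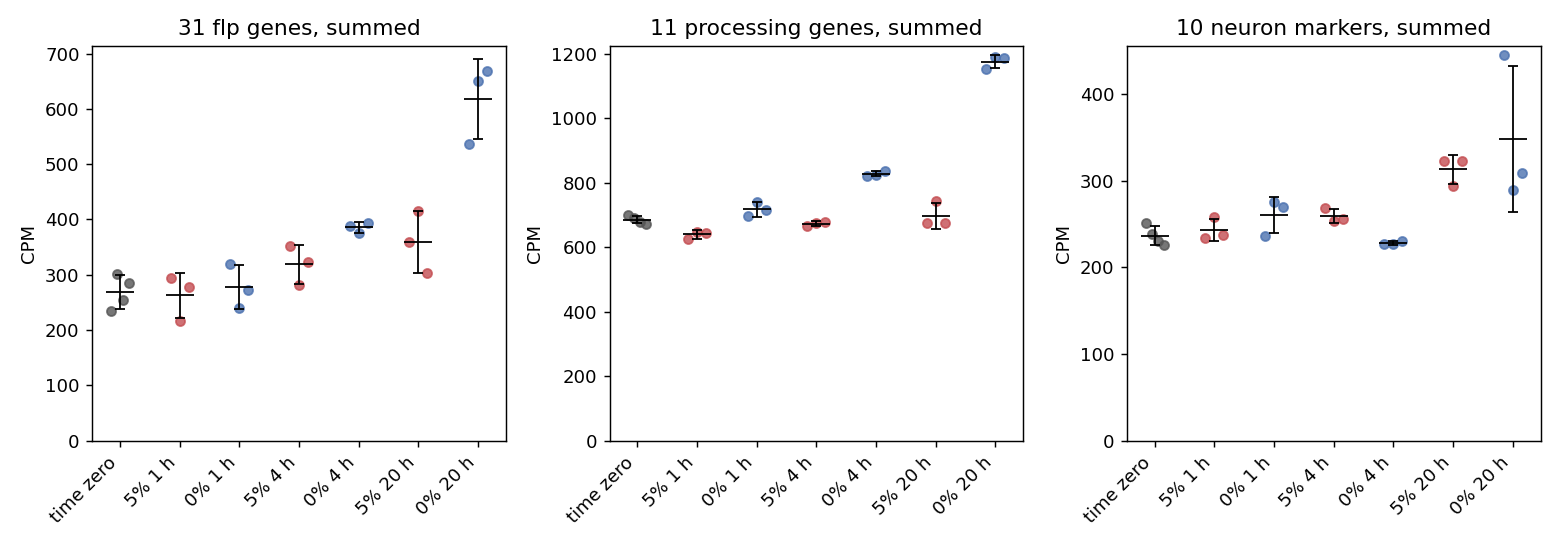
Summed level in CPM of the 31 flp genes, the 11 peptide-processing genes and the 10 neuron markers in each of the 22 libraries, by ethanol concentration and time. Points are libraries, and bars are the mean and SD of 4 libraries at time zero and 3 elsewhere. At 20 h the flp sums are 302.3 to 414.4 CPM in 5% ethanol and 535.9 to 669.1 CPM in 0% ethanol.

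No flp gene was called after 1 h of ethanol. Of the 30 tested genes 0 passed the threshold in either direction and 0 had an unadjusted p under 0.05, while 6.67% of all genes were called in edgeR's test. DESeq2 and limma-voom called 0 flp genes as well. The log2 fold changes of ethanol over control ran from -0.35 for flp-15 to 0.47 for flp-34, with a median of -0.05 against -0.01 over all tested genes.

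After 4 h, 6 flp genes were lower in ethanol and 0 were higher. In that comparison 13.4% of all genes were called lower and 17.1% higher. The 6 were flp-25, flp-10, flp-7, flp-6, flp-16 and flp-18. The median log2 fold change of the 30 genes was -0.20, against 0.00 over all tested genes. All 6 had every ethanol library below every control library, as did 7 flp genes that were not called, and 26.3% of all tested genes had that arrangement.

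flp-10 encodes a peptide that inhibits egg laying through the receptor EGL-6. Its level was 8.88, 6.94 and 7.67 CPM in ethanol at 4 h, against 15.7, 16.5 and 17.3 CPM in control. The groups were well apart, with a log2 fold change of -1.07 ± 0.15 (SE) and an adjusted p of 1.4e-05. flp-25 had 0.814, 0.486 and 1.06 CPM in ethanol at 4 h, against 1.48, 2.19 and 2.04 CPM in control. It had the largest of the 6 changes in size, with a log2 fold change of -1.29 ± 0.30 (SE) and an adjusted p of 0.00232, at the lowest level of the 6.

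flp-7 encodes a peptide that ASI neurons secrete and that promotes fat loss through the receptor NPR-22. It had 6.43, 3.89 and 5.55 CPM in ethanol at 4 h, against 9.93, 9.05 and 9.62 CPM in control. The ranges were separate, and the log2 fold change was -0.85 ± 0.22 (SE; adjusted p = 0.00508). flp-6, expressed in AFD thermosensory neurons among others, had 19.7, 16.04 and 16.7 CPM in ethanol at 4 h, against 26.6, 27.2 and 28.6 CPM in control (log2 fold change -0.65 ± 0.20, adjusted p = 0.0166). flp-16 had 11.98, 10.6 and 9.79 CPM in ethanol at 4 h, against 17.1, 14.9 and 15.9 CPM in control (log2 fold change -0.56 ± 0.17, adjusted p = 0.0131). flp-18, a ligand of NPR-1, NPR-4 and NPR-5, had 22.4, 18.2 and 20.4 CPM in ethanol at 4 h, against 32.0, 27.1 and 28.9 CPM in control (log2 fold change -0.53 ± 0.17, adjusted p = 0.0208). In each of these genes the highest ethanol library was below the lowest control library. The calls of flp-16, flp-6 and flp-18 were lost without ethanol replicate 3 of 4 h, which left 3 of the 6.

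After 20 h, 24 of the 30 tested flp genes were lower in ethanol, 1 was higher and 5 were not called. In that comparison 28.1% of all genes were called lower and 25% higher. The log2 fold changes ran from -2.13 for flp-25 to 0.94 for flp-33, with a median of -0.97 against -0.06 over all tested genes. Of the 24 lower genes, 14 fell by at least 1 on the log2 scale, a rule whose share over all genes was not counted. All ethanol libraries were below all control libraries for 24 of the 30 genes, an arrangement found in 28.3% of all tested genes. These were not the same 24 as those called lower. They included flp-13 and flp-19, which were not called, and left out flp-14 and flp-28, which were called. All 6 genes called lower at 4 h were among the 24 called lower at 20 h.

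**Figure D2:**
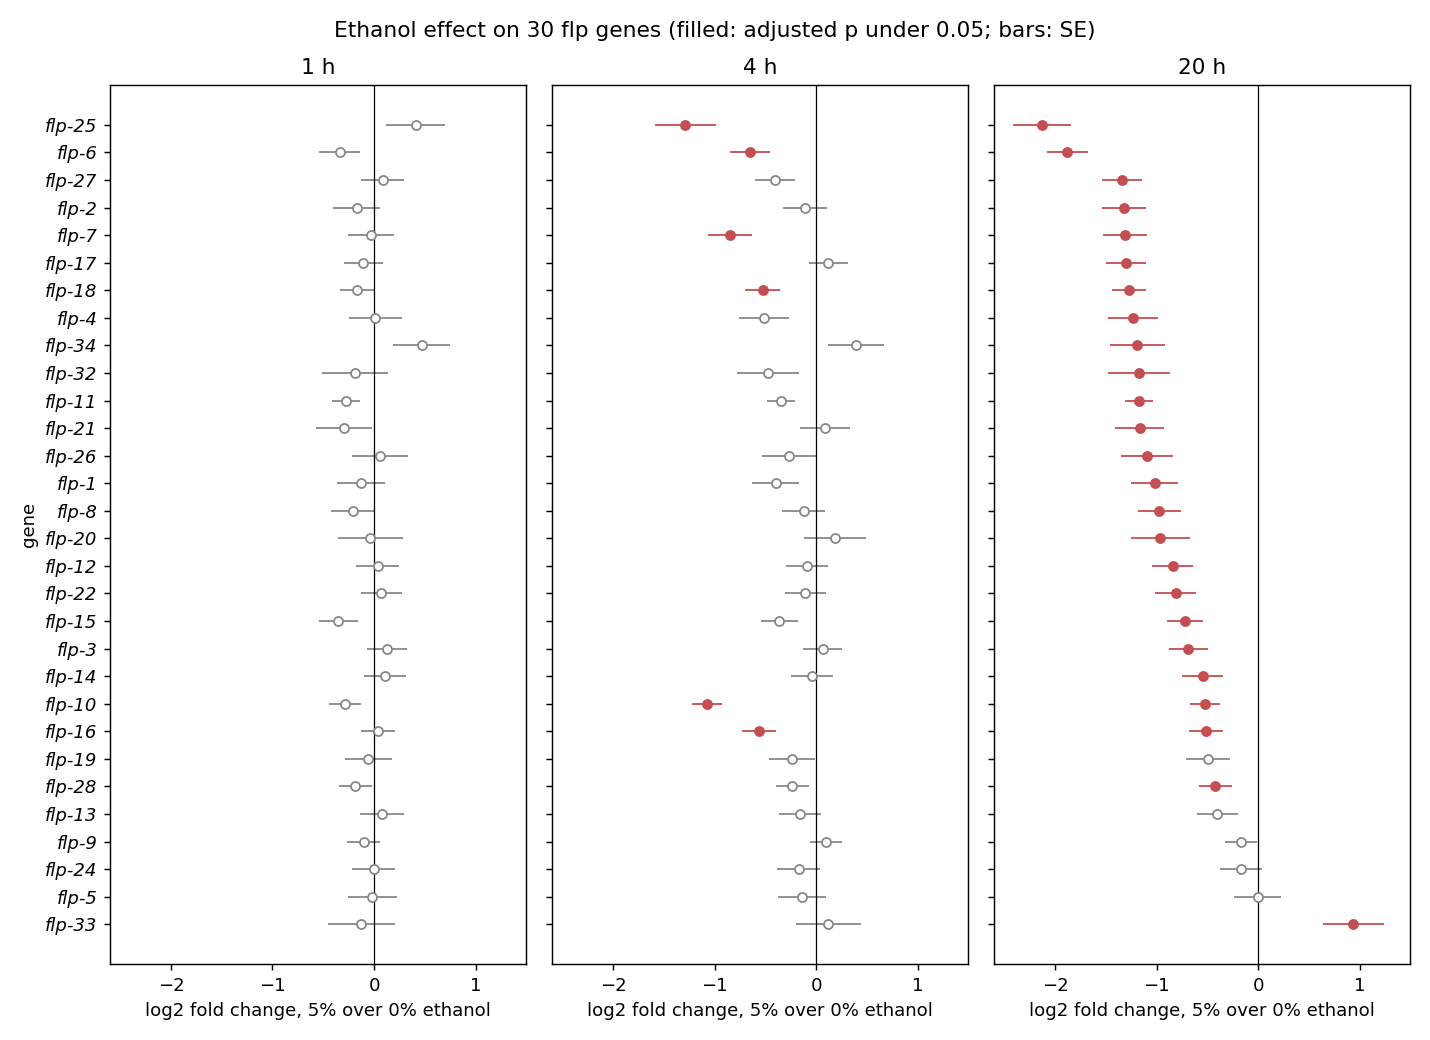
Log2 fold change of 5% over 0% ethanol at 1, 4 and 20 h for the 30 tested flp genes, ordered by the 20 h value. Bars are SE, and filled points have an adjusted p under 0.05. The number of filled points is 0 at 1 h, 6 at 4 h and 25 at 20 h, and flp-33 alone of the 25 is filled to the right of the line.

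Among the largest falls at 20 h were those of flp-25, flp-6 and flp-17. flp-25 had 0.913, 0.843 and 0.690 CPM in ethanol at 20 h, against 4.65, 2.40 and 3.73 CPM in control. The groups did not overlap, although the controls were widely spread, and the log2 fold change was -2.13 ± 0.28 (SE; adjusted p = 2.12e-06). flp-6 had 12.3, 15.1 and 11.3 CPM in ethanol at 20 h, against 37.3, 51.2 and 54 CPM in control. Its log2 fold change was -1.88 ± 0.20 (SE), with the smallest adjusted p of the family, 1.48e-07. flp-17, made in the BAG neurons that sense oxygen and carbon dioxide and a second ligand of EGL-6, had 3.00, 4.06 and 4.25 CPM in ethanol at 20 h, against 8.70, 9.89 and 9.40 CPM in control. The ethanol libraries were all under the lowest control, with a log2 fold change of -1.30 ± 0.20 (SE; adjusted p = 1.15e-05).

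flp-2, which promotes arousal through FRPR-18, had 2.87, 4.06 and 3.10 CPM in ethanol at 20 h, against 8.24, 8.40 and 8.43 CPM in control (log2 fold change -1.32 ± 0.22, adjusted p = 2.58e-05). flp-11, the sleep-promoting peptide of the RIS neuron, had 10.4, 12.3 and 9.54 CPM in ethanol at 20 h, against 24.6, 24.9 and 23.1 CPM in control (log2 fold change -1.17 ± 0.14, adjusted p = 4.45e-07). The groups did not overlap for either gene. The sleep peptides of the ALA neuron did not pass the threshold: flp-13 averaged 9.62 ± 1.73 CPM in ethanol and 12.7 ± 1.43 CPM in control at 20 h (SD, n = 3 each; adjusted p = 0.103). All ethanol libraries were nonetheless below all controls for flp-13. For flp-24 the averages at 20 h were 22.8 ± 4.61 CPM in ethanol and 25.5 ± 6.55 CPM in control (SD, n = 3 each; adjusted p = 0.523), and its libraries overlapped.

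Ligands of NPR-1, the receptor of foraging and aggregation behaviour, were lower at 20 h. flp-18 had 24.9, 24.8 and 21.04 CPM in ethanol, against 47.9, 61.9 and 61.3 CPM in control (log2 fold change -1.27 ± 0.17, adjusted p = 1.98e-06). flp-21 had 3.13, 2.61 and 2.36 CPM in ethanol, against 6.18, 6.43 and 5.59 CPM in control (log2 fold change -1.17 ± 0.24, adjusted p = 0.00041). Neither gene had overlapping groups. The peptide of the AVK neurons that acts on locomotion, flp-1, had 33.5, 33.8 and 25.7 CPM in ethanol at 20 h, against 50.8, 68.1 and 69.3 CPM in control (log2 fold change -1.02 ± 0.23, adjusted p = 0.000932). At 4 h flp-1 and flp-21 were not called, with log2 fold changes of -0.40 ± 0.23 and 0.09 ± 0.25 (SE; adjusted p = 0.225 and 0.855).

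flp-7 and flp-34 have receptors of the NPR family. flp-7 had 5.68, 7.28 and 4.89 CPM in ethanol at 20 h, against 11.4, 17.8 and 15.0 CPM in control (log2 fold change -1.31 ± 0.22, adjusted p = 2.86e-05). flp-34, which acts through NPR-11 in aversive olfactory learning, had 2.94, 3.07 and 1.38 CPM in ethanol at 20 h, against 4.81, 5.58 and 6.32 CPM in control (log2 fold change -1.19 ± 0.27, adjusted p = 0.000779). Neither gene had overlapping groups at 20 h.

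Among the other large falls, flp-27 had 9.27, 11.3 and 8.11 CPM in ethanol at 20 h, against 21.3, 24.4 and 27 CPM in control (log2 fold change -1.34 ± 0.20, adjusted p = 6.96e-06). flp-4 had 3.07, 4.45 and 2.24 CPM in ethanol at 20 h, against 7.86, 6.85 and 8.11 CPM in control (log2 fold change -1.24 ± 0.25, adjusted p = 0.00025). flp-32 had 1.57, 3.53 and 1.73 CPM in ethanol at 20 h, against 4.88, 4.31 and 6.08 CPM in control (log2 fold change -1.18 ± 0.30, adjusted p = 0.00266). In all 3 genes the highest ethanol library was below the lowest control. The lower genes not yet given were flp-26, flp-8, flp-20, flp-12, flp-22, flp-15, flp-3, flp-14, flp-10, flp-16 and flp-28, with log2 fold changes from -1.09 for flp-26 to -0.42 for flp-28. Libraries of the groups overlapped for flp-14 and flp-28.

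flp-33 was named after its values were seen, as the single flp gene called higher. Its level was 6.79, 5.67 and 6.55 CPM in ethanol at 20 h, against 4.96, 2.54 and 2.43 CPM in control. The ethanol libraries were all above the controls, with a log2 fold change of 0.94 ± 0.30 (SE; adjusted p = 0.0125). Control replicate 1 was the nearest to ethanol, and the call was lost without control replicate 2 or control replicate 3 of 20 h, when only the ethanol and control libraries of 20 h were fitted, and with length offsets, where the adjusted p was 0.0858. The other uncalled genes at 20 h were flp-5, flp-9 and flp-19, and flp-5 averaged 13.8 ± 3.51 CPM in ethanol and 13.8 ± 0.688 CPM in control (SD, n = 3 each).

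**Figure D3:**
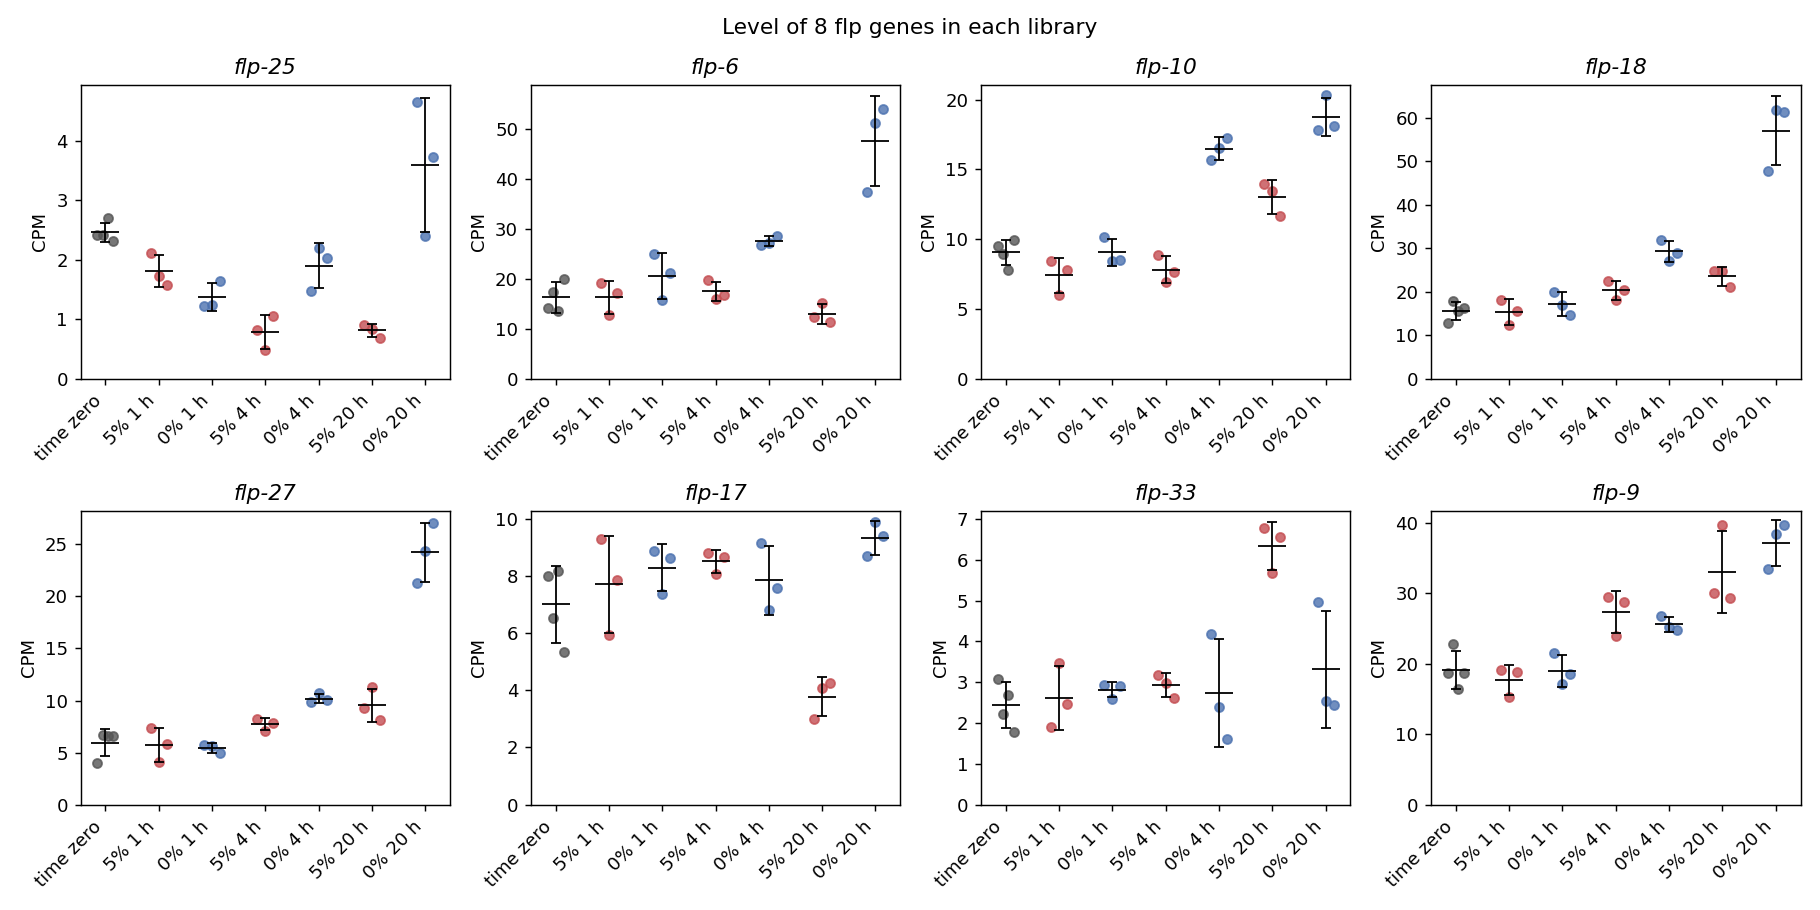
Level in CPM of 8 flp genes in every library, by ethanol concentration and time, with the mean and SD of 4 libraries at time zero and 3 elsewhere. For flp-6 the ethanol libraries at 20 h are 11.3 to 15.1 CPM and the control libraries 37.3 to 54 CPM. For flp-33 the ethanol libraries are the higher ones at 20 h, and for flp-9 the groups overlap.

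The effect of ethanol differed between the times for 17 of the 30 flp genes, in a test of the difference over 1, 4 and 20 h, with 40.7% of all genes called. The smallest adjusted p values were 0.000115 for flp-25, 0.000362 for flp-6 and 0.000505 for flp-17. Between 4 h and 1 h the effect was lower for 2 genes, flp-25 and flp-10, with 6.4% of all genes lower. Between 20 h and 4 h it was lower for 11 flp genes, with 16.9% of all genes lower, and between 20 h and 1 h for 15, with 20.2% of all genes lower. None of the 30 had a higher effect in any of these pairs in edgeR's test, and 2 of the 30 had a positive difference between 20 h and 1 h. Without ethanol replicate 3 of 20 h the count over the times was 10, and without ethanol replicate 1 of 20 h it was 11.

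Time in buffer without ethanol went with higher flp levels. In control larvae against time zero, 1 flp gene was lower at 1 h, which was flp-25, and 0 were higher (5.49% of all genes lower, 5.33% higher). Its adjusted p was 0.0484, and the call was lost in 17 of the 22 fits that left out 1 library, and with DESeq2, limma-voom or the replicate block. At 4 h, 11 were higher and 0 lower (22.9% and 23.3% of all genes), and at 20 h, 27 were higher and 0 lower (30.8% and 24.4% of all genes). The median log2 fold change of control over time zero was 0.04, 0.43 and 1.05 at 1, 4 and 20 h, against 0.06, -0.06 and 0.07 over all tested genes. At 20 h 19 flp genes were at least doubled in control over time zero, a rule whose share over all genes was not counted. In the same comparison at 20 h, 6 of 10 neuron markers were higher and 0 lower, with a median log2 fold change of 0.64. Other lists were higher too, with 8 of 11 processing genes (1 lower), 3 of 5 body wall muscle markers (0 lower, median 1.03) and 3 of 5 epidermis markers (1 lower, median 2.27), and their part in the flp result was not tested.

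The largest rises in control larvae at 20 h were those of flp-27 and flp-18. flp-27 had 21.3, 24.4 and 27 CPM in control at 20 h, against 4.00, 6.64, 6.56 and 6.57 CPM at time zero (log2 fold change 2.02 ± 0.19, adjusted p = 7.76e-09). flp-18 had 47.9, 61.9 and 61.3 CPM in control at 20 h, against 12.9, 17.9, 15.6 and 16.3 CPM at time zero (log2 fold change 1.86 ± 0.16, adjusted p = 2.19e-09). For both genes the control libraries were above every time zero library. flp-12, which with flp-8, flp-10 and flp-20 restrains repeated turning of mating males, had 24.8, 33.1 and 34.8 CPM in control at 20 h, against 7.44, 12.9, 8.72 and 10.8 CPM at time zero (log2 fold change 1.63 ± 0.19, adjusted p = 2.82e-07). flp-1 had 50.8, 68.1 and 69.3 CPM in control at 20 h, against 14.8, 27.1, 18.8 and 21.3 CPM at time zero (log2 fold change 1.61 ± 0.22, adjusted p = 1.81e-06). For each of these the groups did not overlap. The next in size were flp-34, flp-6, flp-21 and flp-20, with log2 fold changes of 1.55, 1.54, 1.48 and 1.43 in control at 20 h over time zero. Among the 11 genes called higher in control at 4 h, the 8 with the largest log2 fold change were flp-18, flp-10, flp-27, flp-6, flp-16, flp-1, flp-7 and flp-14, from 0.90 ± 0.16 for flp-18 to 0.54 ± 0.19 for flp-14 (log2 ± SE). Of the 6 genes that were lower in ethanol than in control at 4 h, 5 were called higher in control than at time zero. That comparison and the ethanol comparison share the control libraries.

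In ethanol larvae against time zero the changes were fewer. At 1 h, 0 flp genes were called (10.6% of all genes called), and 2 had an unadjusted p under 0.05. At 4 h, 4 were higher and 1 lower (19.7% and 19.5% of all genes), and at 20 h, 14 were higher and 2 lower (26.5% and 26.6% of all genes). The 2 lower were flp-25, with 0.913, 0.843 and 0.690 CPM in ethanol at 20 h against 2.42, 2.42, 2.698 and 2.32 CPM at time zero, and flp-17, with 3.00, 4.06 and 4.25 CPM in ethanol at 20 h against 8.002, 6.51, 8.18 and 5.34 CPM at time zero. Their log2 fold changes over time zero were -1.59 ± 0.28 and -0.89 ± 0.19 (SE; adjusted p = 6.39e-05 and 0.000543). Of the 24 genes lower in ethanol than in control at 20 h, 22 were higher in control than at time zero, and flp-25 and flp-17 were not called there. In ethanol at 20 h, 9 of the 24 were higher than at time zero, 2 were lower and 13 were not called. The ethanol mean lay between the time zero and control means for 15 of the 24 and below the time zero mean for 9. These comparisons share libraries, so the counts are side by side and no test was made of their overlap.

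**Figure D4:**
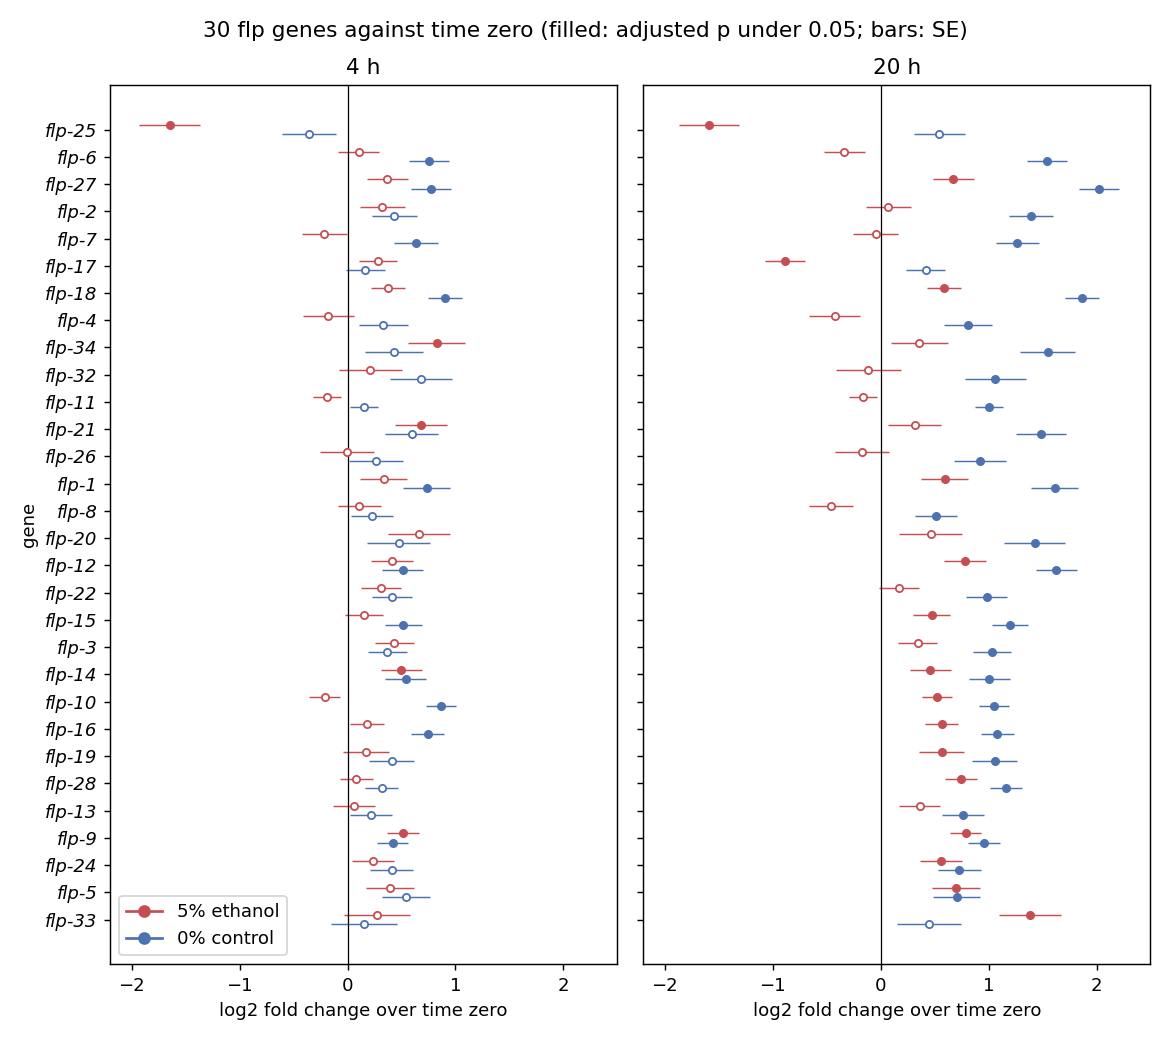
Log2 fold change over time zero of 5% ethanol and 0% control larvae at 4 h and 20 h for the 30 tested flp genes, in the order of the ethanol effect at 20 h. Bars are SE, filled points have an adjusted p under 0.05, and both colours share the time zero libraries. At 20 h the control points reach 2.02 for flp-27, and the ethanol points are below zero and filled for flp-25 and flp-17.

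Genes that process the peptides were mostly lower in ethanol at 20 h. Of 11 processing genes, 0 were called at 1 h, 1 was higher and 5 lower in ethanol at 4 h, and 0 were higher and 9 lower at 20 h. Over all tested genes 6.67% were called at 1 h, 17.1% were higher and 13.4% lower at 4 h, and 25% were higher and 28.1% lower at 20 h. The median log2 fold change at 20 h was -0.83. egl-3, the main proprotein convertase of neuropeptides, had 43.9, 48.0 and 58.1 CPM in ethanol at 20 h, against 215, 102 and 112 CPM in control. The groups did not overlap, though control replicate 1 was far above the other controls, and the log2 fold change was -1.52 ± 0.28 (SE; adjusted p = 0.000118). The carboxypeptidase gene egl-21 had 100, 91.5 and 98.4 CPM in ethanol at 20 h, against 186, 156 and 176 CPM in control (log2 fold change -0.83 ± 0.11, adjusted p = 1.23e-06). At 4 h egl-21 had 76.6, 78.5 and 71.7 CPM in ethanol, against 117, 112 and 109 CPM in control (log2 fold change -0.57 ± 0.11, adjusted p = 0.000277). The largest fall of a processing gene at 20 h was that of the carboxypeptidase D gene cpd-2, which had 1.04, 2.53 and 1.61 CPM in ethanol, against 13.4, 9.67 and 10.4 CPM in control (log2 fold change -2.70 ± 0.28, adjusted p = 5.78e-08). The amidating enzyme gene pamn-1 was higher in ethanol at 4 h, at 73.7, 69.0 and 87.8 CPM against 23.2, 26.4 and 25.5 CPM in control (log2 fold change 1.62 ± 0.36, adjusted p = 0.00154), and lower at 20 h, at 30.9, 81.7 and 29.2 CPM in ethanol against 82.6, 253 and 198 CPM in control (log2 fold change -1.91 ± 0.36, adjusted p = 0.000136).

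Genes of dense-core vesicle formation, transport and release were called in both directions. Of 9 listed, 1 was higher and 0 lower in ethanol at 1 h, 1 higher and 1 lower at 4 h, and 0 higher and 2 lower at 20 h. The shares of all genes were 6.67% called at 1 h, 17.1% higher and 13.4% lower at 4 h, and 25% higher and 28.1% lower at 20 h. The counts at 1 h and 4 h and the lower count at 20 h are near these shares. The gene of the release factor CAPS, unc-31, had 13.5, 15.6 and 11.1 CPM in ethanol at 1 h, against 4.78, 4.30 and 3.97 CPM in control (log2 fold change 1.61 ± 0.28, adjusted p = 0.000738). At 4 h unc-31 had 10.2, 11.9 and 13.96 CPM in ethanol, against 4.27, 4.53 and 4.07 CPM in control (log2 fold change 1.49 ± 0.28, adjusted p = 0.00034). The ethanol libraries were above all controls at both times. At 20 h it had 21.2, 15.7 and 18.3 CPM in ethanol, against 20.6, 8.69 and 7.46 CPM in control, with overlap and an adjusted p of 0.0662. The vesicle membrane protein gene ida-1 had 24.9, 30.5 and 35.5 CPM in ethanol at 20 h, against 177, 83.0 and 87.4 CPM in control (log2 fold change -1.93 ± 0.27, adjusted p = 4.92e-06), and the other lower gene at 20 h was the kinesin gene unc-104.

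Of 44 listed receptor genes 30 were tested, and 1 was higher and 0 lower in ethanol at 1 h, 2 higher and 8 lower at 4 h, and 2 higher and 14 lower at 20 h. The shares over all genes were 6.67% called at 1 h, 17.1% higher and 13.4% lower at 4 h, and 25% higher and 28.1% lower at 20 h. The receptor called at 1 h was dmsr-12, with 1.30, 0.823 and 2.22 CPM in ethanol, against 0.205, 0.678 and 0.484 CPM in control (log2 fold change 1.75 ± 0.45, adjusted p = 0.0191). At 4 h dmsr-12 was lower, with 0.444, 0.208 and 0.245 CPM in ethanol, against 0.958, 0.480 and 0.913 CPM in control (log2 fold change -1.35 ± 0.49, adjusted p = 0.041). At 4 h the larger falls were those of npr-3, a receptor of FLP-15, at 0.0740, 0.208 and 0.490 CPM in ethanol against 1.48, 1.10 and 1.62 CPM in control, and of frpr-7, at 0.296, 0.417 and 0.408 CPM in ethanol against 2.00, 1.65 and 1.26 CPM in control. Their log2 fold changes at 4 h were -2.43 ± 0.54 and -2.10 ± 0.43 (SE; adjusted p = 0.00143 and 0.000686). npr-5, a receptor of FLP-18, had 1.26, 1.25 and 0.735 CPM in ethanol at 4 h, against 3.40, 3.64 and 3.02 CPM in control (log2 fold change -1.61 ± 0.31, adjusted p = 0.000369). In these genes the groups did not overlap, at levels of only a few CPM.

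At 20 h the largest receptor falls were those of dmsr-6 and of npr-22, the receptor of FLP-7. dmsr-6 had 1.501, 2.30 and 1.61 CPM in ethanol, against 5.11, 10.5 and 8.51 CPM in control (log2 fold change -2.16 ± 0.29, adjusted p = 2.34e-06). npr-22 had 0.913, 0.307 and 0.460 CPM in ethanol, against 2.21, 2.12 and 2.35 CPM in control (log2 fold change -1.96 ± 0.38, adjusted p = 0.000169). The groups did not overlap for either. The 2 receptors called higher at 20 h were frpr-4 and frpr-11, named after their values were seen. Their log2 fold changes were 1.68 ± 0.60 and 1.91 ± 0.43 (SE; adjusted p = 0.0231 and 0.000753), and the libraries overlapped for frpr-4. Of other receptors, also picked after their values were seen, egl-6 was lower in ethanol at 4 h (log2 fold change -0.71 ± 0.21, adjusted p = 0.0137) and not called at 20 h (-0.11 ± 0.21, adjusted p = 0.691). The dmsr-1 gene, whose product binds FLP-13, was lower at 20 h (-0.70 ± 0.22, adjusted p = 0.00972), as was frpr-18 (-0.83 ± 0.26, adjusted p = 0.0112). npr-1 had too few reads to be tested, with 13 in ethanol and 28 in control over the 3 libraries of 20 h.

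**Figure D5:**
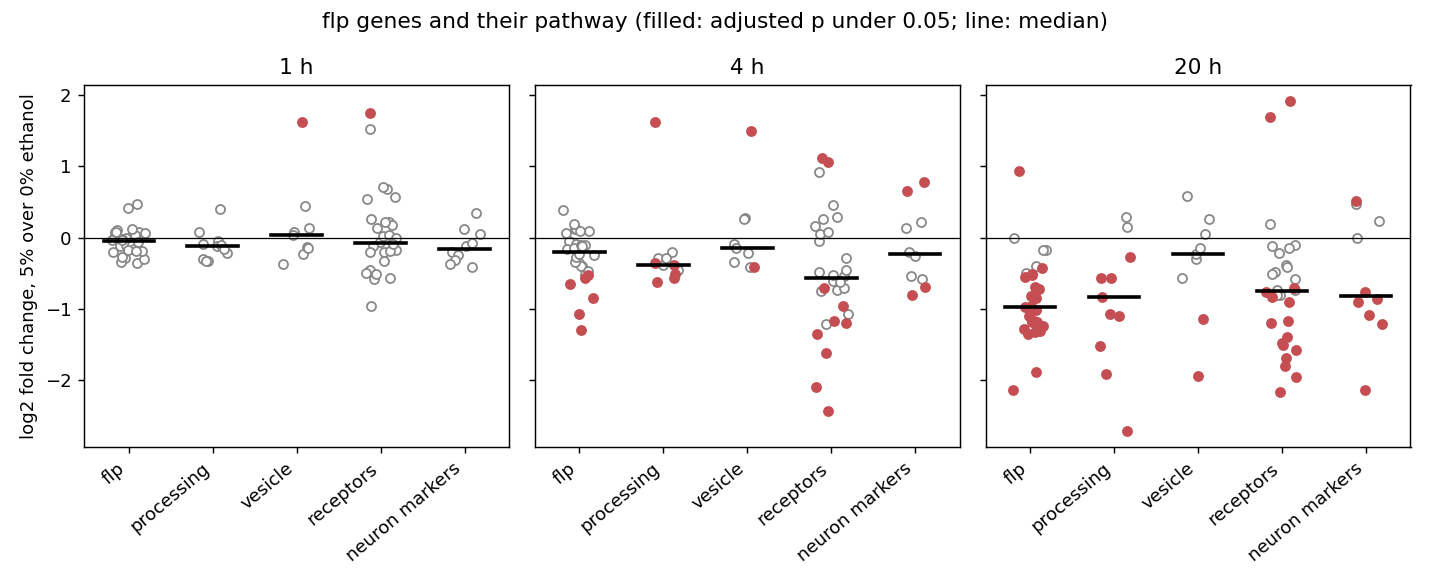
Log2 fold change of 5% over 0% ethanol at 1, 4 and 20 h for the tested flp genes, processing, vesicle and receptor genes and the neuron markers. Each point is 1 gene, filled where its adjusted p is under 0.05, and the line is the group's median. At 20 h the medians are -0.97 for flp, -0.83 for processing, -0.23 for vesicle, -0.75 for receptor and -0.81 for neuron marker genes.

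Of 10 general neuron markers, 2 were higher (unc-64 and unc-18) and 2 lower (ric-19 and snt-1) in ethanol at 4 h, and at 20 h 1 was higher (unc-64) and 6 were lower, with a median log2 fold change of -0.81. Over all genes 17.1% were higher and 13.4% lower at 4 h, near the markers' shares, and 25% were higher and 28.1% lower at 20 h. The marker sum at 20 h was 322.7, 293.8 and 322.7 CPM in ethanol, against 444.4, 289.7 and 308.8 CPM in control, which overlapped. Most of the sum in ethanol came from snb-1, unc-18 and unc-64, with means of 92.93, 74.73 and 68.45 CPM. None of these was among the 6 lower markers, so the sum mostly reflects the others. The ratio of the flp sum to the neuron marker sum at 20 h was 1.11, 1.41 and 0.937 in ethanol, against 1.21, 2.24 and 2.17 in control, and these groups overlapped as well, through control replicate 1. Other tissues moved as well at 20 h. All 5 body wall muscle markers were lower in ethanol, with a summed 978 to 1369 CPM against 4162 to 5155 CPM in control. Of the intestine markers 3 of 5 were lower and 2 higher, and of the epidermis markers 3 of 5 were lower and 0 higher. The epidermis marker dpy-7 averaged 0.184 CPM in ethanol and 85.2 CPM in control at 20 h, from 1.03 CPM at time zero. For qua-1 the averages were 1.285, 20.7 and 2.685 CPM in the same order. Of the eggshell and oocyte markers 2 of 5 were lower, and 0 of 5 germ line markers were called. The part of these tissue shifts in the flp result was not tested. With libraries scaled to the geometric mean of the 10 neuron markers, a different measure from their sum, 11 flp genes were lower and 1 higher in ethanol at 20 h. Without ethanol replicate 3 and control replicate 1 of 20 h, 20 were lower and 1 higher. Both settings were chosen after the data were seen. The shares of all genes given above belong to the main model and do not apply to the counts under these settings.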

How the data were processed

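PolyA RNA of whole larvae was made into libraries with a Kapa HyperPrep kit, per the labels' protocols. The authors deposited 1 table of raw read counts per gene, with 22 library columns. The tools named per the submitters' processing notes are STAR 2.7.9a, Subread 2.0.3 with featureCounts, fastp 0.23.2 and Trimmomatic 0.39, and the build is ce10. For the gene models, strandedness and multiply mapped reads, the settings were not given in the sources used here, so flp genes whose exons overlap another gene's on the opposite strand may share reads with it. In the WBcel235 gene models such overlaps were short, at 5 nt for flp-19, 8 nt for flp-33, 14 nt for flp-16, 17 nt for flp-11 and 21 nt for flp-8. The other flp genes had none. Exon lengths came from WBcel235, and no coordinates are given.

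Groups came from the labels. Of 42048 genes, 15310 passed edgeR's filterByExpr (minimum count 10, minimum total 15). A robust quasi-likelihood model with group means and TMM factors was then fitted across every library in edgeR 4.0.16 under R 4.3.3, and two-sided F-tests were adjusted by Benjamini-Hochberg over all tested genes. Adjusted p-values come from this model, except where DESeq2 or limma is named. SE is the size of the log2 fold change divided by the square root of F. Alternatives used DESeq2 1.42.0, limma 3.58.1 (voom), other scalings and filters, corrections for exon length, a replicate block and omitted libraries. The model was tested on simulated data. In a simulated comparison of ethanol with control at 4 h it recovered 37.4% of 91 genes changed 2-fold and 90.3% of 103 changed 4-fold. There were 11 false calls among 14805 genes. In the data 4664 genes were called at 4 h and 8142 at 20 h, far more than were changed in the simulation. The recovery rates are also over genes of all kinds, so they are not rates for the flp genes. A gene that was not called may still have changed.

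Per-library values were given for flp genes called in an ethanol comparison, at most 12 per comparison by size, for flp-1, flp-18 and flp-21, and for the 8 largest changes of control over time zero; pathway genes were named by size of change, up to 4 per comparison with at least 10 counts in each group, besides npr-1, egl-3, egl-21 and unc-31. The members, lists and rules were chosen with earlier results of these data known.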

Additional observations from a re-analysis of the deposited data

Results flagged for a closer look

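At time zero, replicate 1 had 4.001 CPM of flp-27, far below the other 3 libraries at 6.56, 6.57 and 6.64 CPM, in a test for outlying values that chance passes in about 1 of 20 groups. That test was run on each of the 31 flp genes and on their sum, and only flp-27 passed. With so many tests a single pass can readily come by chance. Replicate 1 also had the highest eggshell and oocyte sum of its group. Its part in the value was not tested.

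The ethanol effect differed between 1, 4 and 20 h for 17 flp genes in edgeR's quasi-likelihood test of the difference. The adjusted p was 0.000115 for flp-25, 0.000362 for flp-6, 0.000505 for flp-17, 0.00116 for flp-27, 0.00122 for flp-11 and 0.00173 for flp-34. It was 0.00222 for flp-18, 0.00401 for flp-2, 0.00681 for flp-7, 0.0152 for flp-10, 0.0171 for flp-21 and 0.0222 for flp-4. For flp-3 it was 0.0301, for flp-22 0.0342, for flp-12 0.0357, for flp-26 0.0445 and for flp-8 0.0466. At 1, 4 and 20 h the log2 fold changes of ethanol over control were 0.41, -1.29 and -2.13 for flp-25, 0.47, 0.39 and -1.19 for flp-34, and -0.10, 0.12 and -1.30 for flp-17.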

How the results depend on the processing

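Counts of flp genes are given as called, and settings with only small shifts in a count are not listed. The share of all genes called can change with the setting as well and is not given, so these counts have no background beside them. In ethanol against control at 4 h the 6 became 3 with library totals alone, 11 with length offsets, 10 with the length slope as covariate and 3 with neuron scaling. At 20 h the 25 became 12 with neuron scaling, and at 1 h the 0 became 1 with the slope covariate. Smaller shifts at 20 h included the calls of flp-16, flp-14, flp-15, flp-10, flp-28 and flp-3, lost with library totals alone. Those of flp-33, flp-16, flp-14, flp-10 and flp-28 were lost when only the groups compared were fitted. In control at 1 h against time zero the 1 became 0 with library totals alone, DESeq2, limma-voom, no filter, length offsets, neuron scaling or without the 6 libraries scoring above 10, and 2 with the slope covariate. Control at 4 h gave 19 with the slope covariate in place of 11, and control at 20 h gave 13 with neuron scaling in place of 27. Ethanol at 1 h against time zero gave 1 with DESeq2, length offsets, neuron scaling or without the 20 h libraries scoring above 10, and 2 with the slope covariate, in place of 0. Ethanol at 4 h gave 3 without a filter, 13 with the slope covariate and 11 with neuron scaling in place of 5, and ethanol at 20 h gave 7 with neuron scaling in place of 16. The difference between times gave 9 with library totals alone, 7 with neuron scaling and 11 without the 20 h libraries scoring above 10, in place of 17. Neuron scaling moved the median of all genes at 20 h to 0.43 from -0.06, and flp-28 then had a log2 fold change of 0.012 (adjusted p = 0.966). The cause of these shifts was not tested.

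Leaving out 1 library at a time gave counts of 0 to 0, 3 to 6 and 19 to 27 for ethanol against control at 1, 4 and 20 h, 0 to 1, 6 to 13 and 26 to 28 for control against time zero, 0 to 1, 3 to 7 and 10 to 18 for ethanol against time zero, and 10 to 20 for the difference between times. The lowest came without ethanol replicate 3 of 4 h (3), time zero replicate 1 (6 in control and 3 in ethanol at 4 h), ethanol replicate 1 of 20 h (10 against time zero) and ethanol replicate 3 of 20 h (10 for the difference). The difference was 11 without control replicate 2 or ethanol replicate 3 of 1 h.

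Same-numbered libraries deviated with correlations from -0.818 to 0.971, so the numbers were not taken to pair them. With a replicate block the ethanol counts at 1, 4 and 20 h were 0, 6 and 24, and control at 1 h against time zero gave 0. Low counts limit flp-23, npr-1 and 13 other receptor genes, which could not be tested.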
